A study of Mus musculus with 16 samples.

Results

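The 8 genes described here encode transcription factors that pattern the anterior neural tube: the homeobox genes Otx1, Otx2, Gbx2, Emx2, Six3 and Six6, and the orphan nuclear receptor genes Nr2e1 and Nr2f1. They were chosen by name, and each matched 1 of the 39171 rows of the deposited expression table. RNA was measured in astrocytes sorted by flow cytometry from thalamus and spinal cord tissue of 4 C57BL/6 mice at postnatal day 15. All 4 groups shared 1 genotype, written IL-33-mCherry (het)/Aldh1l1-GFP+, which joins 1 copy of an mCherry reporter of Il33, the gene of an alarmin cytokine, to a GFP reporter of the astrocyte gene Aldh1l1. Each mouse gave a reporter-positive and a reporter-negative library from each region, so that there were 16 libraries in 4 groups of 4. The groups were reporter-negative thalamus, reporter-positive thalamus, reporter-negative spinal cord and reporter-positive spinal cord. No source used here says how GFP entered the sort.

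As background, the vertebrate neural tube is divided along its length by transcription factors whose expression domains meet at sharp borders. OTX proteins hold the forebrain and midbrain territory and GBX2 the anterior hindbrain, and the border between them sets the isthmus, while GBX2 is used again in the developing thalamus. SIX3 and SIX6 mark the most anterior neural plate and the eye field, EMX2 the dorsal telencephalon, and NR2E1 (also called TLX) the forebrain and adult neural stem cells. NR2F1 (also called COUP-TFI) grades the cortex and is widely used elsewhere in the nervous system. Astrocytes arise from the radial glia of each region, and such factors are known to leave region-specific traces in them.

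The 4 groups each held 12 of 12 listed astrocyte markers, with summed levels of 4572 to 9105 FPKM per library (fragment numbers divided by the length of the transcript and the size of the library). Aldh1l1 was at 14.7 to 38.3 FPKM. Sequencing depth is not known from FPKM values, so no counting error can be given for a low level. The reporter-negative libraries also held markers of other cell types. The 13 ependymal genes summed to 390 to 689 FPKM in negative thalamus and 129 to 178 FPKM in negative spinal cord libraries, against 14.7 to 19.9 FPKM and 15.9 to 23.6 FPKM in the positive ones. The sum over 13 oligodendrocyte genes was 530 to 1013 FPKM in negative thalamus and 3464 to 3659 FPKM in negative spinal cord libraries, and at most 245 FPKM in any positive library. In such bulk samples, fewer cells of a type and less RNA per cell cannot be told apart.

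Otx2, Nr2e1 and Six3 were found at many FPKM in every thalamus library of both reporter gates and at less than 0.5 FPKM in every spinal cord library. Otx1 was about 3-fold lower in the spinal cord, where it persisted at several FPKM. Nr2f1 was at a similar level in the 4 groups, Gbx2 was low and ran the other way, Emx2 was low in the thalamus and at or near 0 in the spinal cord, and Six6 was near 0 throughout. The plot of levels by library shows these patterns.

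**Figure D1:**
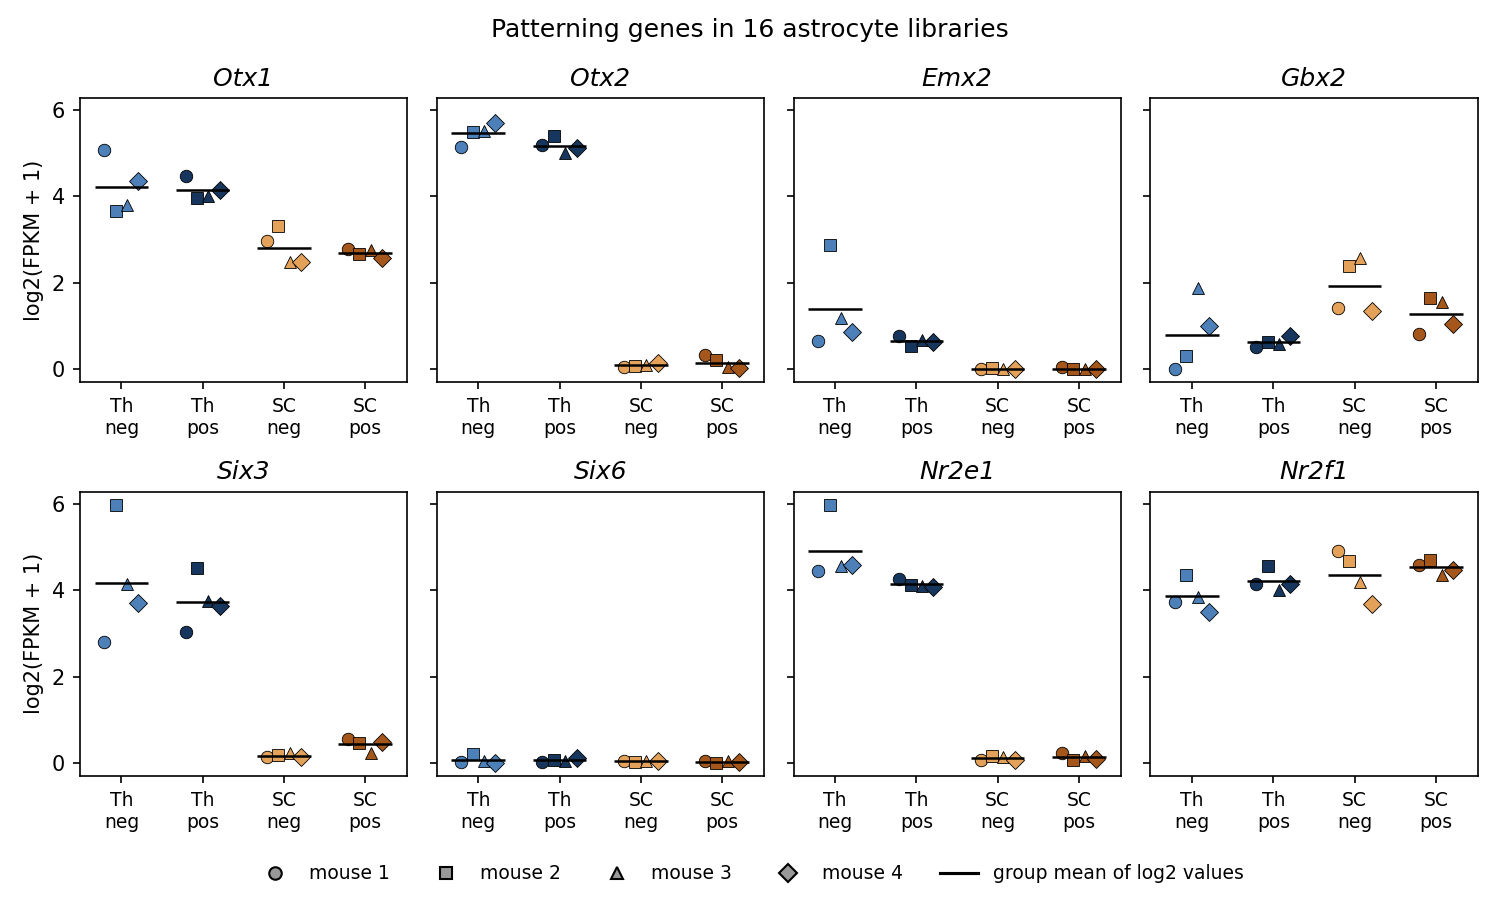
Levels of the 8 genes on the log2(FPKM + 1) scale (vertical axis, the same in each panel) in reporter-negative (neg) and reporter-positive (pos) astrocyte libraries of the thalamus (Th) and the spinal cord (SC). Each symbol is 1 library, its shape is the mouse, and the bar is the mean of the log2 values of 4 libraries. The thalamus and spinal cord libraries of Otx2, Six3, Nr2e1 and Otx1 do not overlap, whereas those of Nr2f1 do.

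Otx2 (chromosome 14, 48657677 to 48673819, minus strand; GENCODE vM21 annotation of GRCm38) encodes a homeodomain activator needed for the forebrain and midbrain. In mice 1 to 4 its level was 35.2, 40.8, 31.1 and 33.9 FPKM in reporter-positive thalamus and 34.4, 43.9, 44.8 and 50.4 FPKM in reporter-negative thalamus. The spinal cord gave 0.254, 0.152, 0.0381 and 0.0259 FPKM in positive and 0.0320, 0.0591, 0.0690 and 0.108 FPKM in negative libraries. No thalamus library was below 31.1 FPKM and no spinal cord library above 0.254 FPKM. The mean was 35.3 ± 4.11 FPKM against 0.117 ± 0.107 FPKM in the positive gate and 43.4 ± 6.61 FPKM against 0.0671 ± 0.0317 FPKM in the negative gate (SD, n = 4). On the log2(FPKM + 1) scale used for every log2 fold change here, which understates the change of low genes, Otx2 was lower in the spinal cord by a log2 fold change of -5.02 ± 0.15 (SE) in positive libraries (limma adjusted p = 1.04e-10). In negative libraries the change was -5.37 ± 0.15 (limma adjusted p = 3.62e-11). With 0.1 in place of 1 added to each value the estimates were -7.47 and -8.03.

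The sequences before the start sites of Otx2, and those of Six3 and Nr2e1 further on, are shown because these 3 genes had the largest regional differences. RefSeq promoter windows of the build GRCm38.p6 existed for 7 of the 8 genes, in 11 windows of 250 bases upstream of a transcript start. They were searched on both strands for TAATTA, a core bound by many homeodomain proteins, TAATCC, the site of OTX and other bicoid-class proteins, and the nuclear receptor half-sites AGGTCA and AAGTCA, the latter that of NR2E1. TAATTA and TAATCC share their first letters but not a whole match. Of 32851 windows of the same length over the mouse genome, 4.84% held TAATTA, 6.25% TAATCC, 14.02% AGGTCA and 13.1% AAGTCA. Otx2 has 4 windows, and the third, at chr14:48665110-48665359 on the minus strand inside the gene, held 3 matches to TAATTA and 1 to TAATCC, the latter read as GGATTA. It is printed for these matches, which were seen before it was chosen, with the matches in capitals; the files do not show which start the astrocytes used.
Otx2, start 3: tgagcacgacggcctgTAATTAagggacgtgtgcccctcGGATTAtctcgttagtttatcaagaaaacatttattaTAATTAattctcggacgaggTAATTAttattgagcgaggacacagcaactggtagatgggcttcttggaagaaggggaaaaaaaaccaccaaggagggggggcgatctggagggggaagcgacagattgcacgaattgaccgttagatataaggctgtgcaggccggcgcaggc

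The first Otx2 window held 1 TAATTA, and none of the 4 motifs was found in the 9 remaining windows of the 7 genes. The window above had a GC content of 48.4% and 14 CpG dinucleotides, against medians of 52.4% and 6 over all windows. A match describes these letters only.

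Otx1 (chromosome 11, 21994764 to 22002897, minus strand), the paralogue of Otx2 with a later role in the cortex and sense organs, was found in all 16 libraries. Its level in mice 1 to 4 was 21.1, 14.6, 15.1 and 16.7 FPKM in positive and 32.6, 11.7, 12.8 and 19.4 FPKM in negative thalamus. The spinal cord libraries gave 5.82, 5.33, 5.79 and 4.92 FPKM in the positive gate and 6.81, 8.96, 4.56 and 4.57 FPKM in the negative gate. The mice stood in the same order in both thalamic gates, with mouse 1 highest and mouse 2 lowest, and no thalamus library fell to the level of a spinal cord library. Mean levels were 3.08-fold lower in positive and 3.07-fold lower in negative spinal cord libraries, with log2 fold changes of -1.45 ± 0.28 (SE, limma adjusted p = 0.00521) and -1.41 ± 0.28 (limma adjusted p = 0.00442). Without mouse 4 neither passed, at limma adjusted p = 0.0784 and 0.0743, and with only the groups compared in the fit the negative gate gave 0.120.

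Because FPKM is scaled by length, the paralogues can be set side by side. Otx2 exceeded Otx1 by 1.06-fold to 3.75-fold in the 8 thalamus libraries, whereas in the 8 spinal cord libraries Otx1 exceeded Otx2 by 22.9-fold to 213-fold. No library departed from this order, although the second ratio rests on Otx2 levels near 0 and is imprecise.

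Gbx2 (chromosome 1, 89927956 to 89931179, minus strand), the hindbrain counterpart of Otx2, was low in all groups. In the spinal cord it was 0.769, 2.13, 1.96 and 1.07 FPKM in positive and 1.65, 4.26, 4.98 and 1.54 FPKM in negative libraries of mice 1 to 4. In the thalamus it was 0.428, 0.540, 0.492 and 0.709 FPKM in positive libraries, and in negative ones it was listed at 0 in mouse 1 and at 0.235, 2.70 and 1.01 FPKM in mice 2 to 4. Gbx2 was higher in the spinal cord library of 4 of 4 mice in each gate, and the positive libraries of the regions did not overlap. Neither difference passed the test, with log2 fold changes of 0.65 ± 0.39 (SE, limma adjusted p = 0.430) and 1.13 ± 0.39 (limma adjusted p = 0.0818). The negative gate passed with the mouse as a block (limma adjusted p = 0.0478) and without the negative thalamus library of mouse 3 (1.49, limma adjusted p = 0.0125), and the positive gate with only its groups in the fit (limma adjusted p = 0.0427).

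Emx2 (chromosome 19, 59458372 to 59465357, plus strand), a homeobox gene of the cortical primordium, reached 1 FPKM in 2 libraries and so missed the filter on low values, at least 1 FPKM in at least 4 libraries. In the thalamus it was 0.712, 0.461, 0.596 and 0.544 FPKM in positive and 0.576, 6.29, 1.28 and 0.818 FPKM in negative libraries of mice 1 to 4. In the spinal cord it was listed at 0 in 6 of 8 libraries and at 0.0186 and 0.0285 FPKM in the other two. Every thalamus library lay above every spinal cord library. Without the filter, the log2 fold change was -1.39 ± 0.34 (SE, limma adjusted p = 0.0285) in the negative and -0.65 ± 0.34 (limma adjusted p = 0.472) in the positive gate. When the negative thalamus library of mouse 2 was also left out, which narrows the spread shared by all groups, these became -0.90 ± 0.10 (limma adjusted p = 1.26e-04) and -0.65 ± 0.09 (limma adjusted p = 0.00116).

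Six3 (chromosome 17, 85613608 to 85629302, plus strand) encodes a homeodomain repressor of posterior fates in the anterior neural plate. Its level in mice 1 to 4 was 7.14, 21.7, 12.4 and 11.4 FPKM in positive and 5.97, 61.8, 16.7 and 12.0 FPKM in negative thalamus. It was 0.478, 0.386, 0.171 and 0.408 FPKM in positive and 0.104, 0.144, 0.165 and 0.0992 FPKM in negative spinal cord libraries. Mouse 2 was highest and mouse 1 lowest in both thalamic gates, and the full order of the mice was the same in both. The means were 13.1 ± 6.15 FPKM against 0.360 ± 0.132 FPKM in the positive gate and 24.1 ± 25.5 FPKM against 0.128 ± 0.0317 FPKM in the negative gate (SD, n = 4). The spinal cord was lower by a log2 fold change of -3.29 ± 0.49 (SE, limma adjusted p = 7.63e-04) and -3.98 ± 0.49 (limma adjusted p = 9.17e-05). Without the negative thalamus library of mouse 2 the latter was -3.38, and with 0.1 added in place of 1 it was -6.198. The 250 bases before the RefSeq start of Six3, at chr17:85620584-85620833 on the plus strand, lie inside the gene span given above. They had a GC content of 48.8% and 10 CpG dinucleotides, and held none of the 4 motifs.
Six3: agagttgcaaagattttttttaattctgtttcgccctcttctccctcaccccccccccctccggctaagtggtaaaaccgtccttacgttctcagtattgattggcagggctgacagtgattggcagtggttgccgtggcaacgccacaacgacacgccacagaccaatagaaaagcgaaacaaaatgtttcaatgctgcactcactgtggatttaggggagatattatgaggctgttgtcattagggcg

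Six6 (chromosome 12, 72939892 to 72944899, plus strand), the eye field and pituitary relative of Six3, was at most 0.147 FPKM in any library and was listed at 0 in 2. Its ranges overlapped between all groups. Without the filter the log2 fold changes between the regions were -0.037 ± 0.037 (SE, limma adjusted p = 0.782) in the positive and -0.027 ± 0.037 (limma adjusted p = 0.792) in the negative gate.

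Nr2e1 (chromosome 10, 42561963 to 42583632, minus strand) encodes a repressor that keeps forebrain neural stem cells dividing. In mice 1 to 4 its level was 18.2, 16.4, 16.0 and 15.9 FPKM in positive and 20.7, 61.7, 22.7 and 23.1 FPKM in negative thalamus. Spinal cord libraries held 0.181, 0.0564, 0.116 and 0.0693 FPKM in positive and 0.0511, 0.111, 0.1004 and 0.0430 FPKM in negative libraries. The positive thalamus libraries lay close together, and mouse 2 stood alone in the negative ones. The spinal cord was lower by a log2 fold change of -3.99 ± 0.27 (SE, limma adjusted p = 2.79e-07) in the positive and -4.79 ± 0.27 (limma adjusted p = 3.39e-08) in the negative gate, or -6.38 and -7.37 with 0.1 added in place of 1. The window before its start, at chr10:42583591-42583840 on the minus strand, had a GC content of 58% and 15 CpG dinucleotides. It held none of the 4 motifs, including the half-site of NR2E1 itself.
Nr2e1: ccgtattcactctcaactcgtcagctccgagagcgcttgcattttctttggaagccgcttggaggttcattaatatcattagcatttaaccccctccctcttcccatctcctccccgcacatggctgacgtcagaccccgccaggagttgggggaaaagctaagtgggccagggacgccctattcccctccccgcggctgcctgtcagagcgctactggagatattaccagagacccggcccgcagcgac

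Nr2f1 (chromosome 13, 78188973 to 78199757, minus strand) was at 16.6, 22.4, 15.1 and 16.5 FPKM in positive and 12.3, 19.5, 13.3 and 10.3 FPKM in negative thalamus of mice 1 to 4. The spinal cord gave 22.9, 25.0, 19.5 and 21.1 FPKM in positive and 28.9, 24.5, 17.1 and 11.7 FPKM in negative libraries. It was higher in the spinal cord library of 4 of 4 mice in each gate, but the ranges of the regions overlapped. The log2 fold changes were 0.32 ± 0.25 (SE, 95% interval -0.22 to 0.85, limma adjusted p = 0.592) and 0.50 ± 0.25 (-0.04 to 1.04, limma adjusted p = 0.255). The order of the 4 group means, from 13.8 FPKM in negative thalamus to 22.1 FPKM in positive spinal cord, therefore had no step beyond the spread of its neighbours.

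Of the 8 genes, 6 passed the filter, and 4 of these were called lower in the spinal cord and 0 higher in each gate. Over all 16340 features tested, 1.88% were called lower and 4.22% higher in the positive gate (6.1% in either direction), and 4.54% and 5.27% in the negative gate (9.81%). Otx2, Six3 and Nr2e1 passed the filter only through the thalamus, so they had to differ there, and their count is no support for a wider statement, whereas Otx1 and Nr2f1 were above 1 FPKM in all 16 libraries. Between the gates, the libraries of the regional comparisons were separate but came from the same mice. The difference between the gates in the regional change was called for 0 of the 6 genes, against 2.56% of all features (1.13% higher and 1.43% lower), and none had an unadjusted limma p under 0.05. For Otx2 this difference was 0.35 ± 0.22 (SE, limma adjusted p = 0.513), for Six3 0.70 ± 0.69 (limma adjusted p = 0.714) and for Nr2e1 0.79 ± 0.38 (limma adjusted p = 0.348).

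**Figure D2:**
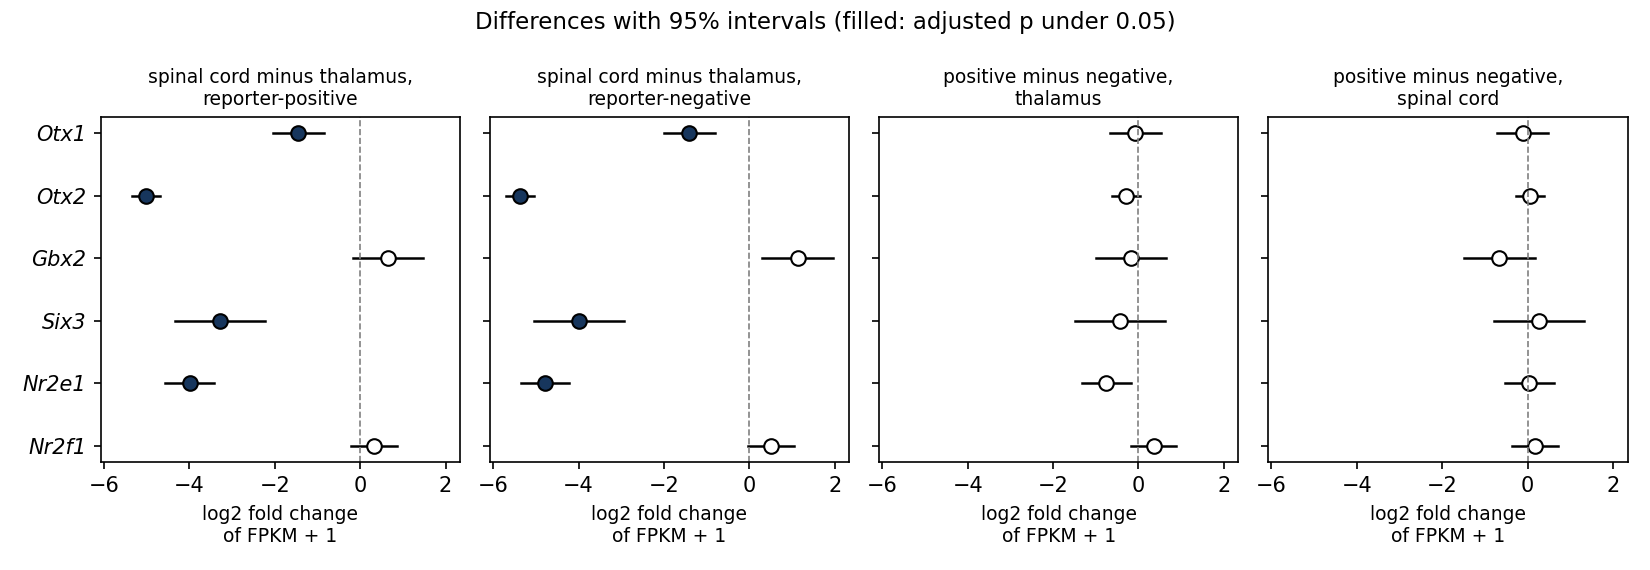
Log2 fold change of FPKM + 1 (horizontal axis) of the 6 tested genes in 4 comparisons, with bars for 95% intervals of the limma fit over 16 libraries. Filled points have an adjusted p under 0.05: Otx1, Otx2, Six3 and Nr2e1 in both regional comparisons, and no gene between the reporter gates.

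In the positive gate, the marker sums of several other cell types overlapped between the regions, although single markers differed. The oligodendrocyte sum was 137 to 212 FPKM in thalamus and 199 to 245 FPKM in spinal cord libraries. Of its 13 genes Mbp was called higher in the spinal cord (1.15 ± 0.20, SE, limma adjusted p = 0.00304) and 12 were not called. Among 13 ependymal genes Mia was called higher (1.82 ± 0.33, limma adjusted p = 0.00369), Cfap54 lower (-1.03 ± 0.26, limma adjusted p = 0.0317) and 11 were not called. The ependymal sum was 14.7 to 19.9 FPKM in thalamus and 15.9 to 23.6 FPKM in spinal cord libraries, the sum over 9 tanycyte genes was 11.7 to 18.6 FPKM and 13.3 to 17.9 FPKM, and that over 12 choroid plexus genes was 6.81 to 21.6 FPKM and 10.4 to 14.97 FPKM. The 12 neuronal markers did not overlap, summing to 16.9 to 22.7 FPKM in thalamus libraries and 29.9 to 41.3 FPKM in those of the spinal cord, and the 12 astrocyte markers did not overlap either, at 4722 to 5580 FPKM and 8351 to 9105 FPKM. Of these astrocyte markers 7 were called higher in the positive spinal cord libraries and 1 lower, with a median log2 fold change of 0.61 against -0.00 over all features. Gfap, an astrocyte filament gene, was higher by 3.16 ± 0.33 (SE, limma adjusted p = 3.18e-05), Aldoc by 1.52 ± 0.21 (limma adjusted p = 3.57e-04) and Aqp4, a water channel gene, by 1.39 ± 0.19 (limma adjusted p = 4.18e-04). The marker called lower was the glutamate transporter gene Slc1a3, at -1.56 ± 0.18 (limma adjusted p = 6.37e-05), from 624 FPKM in thalamus to 211 FPKM in spinal cord. The mitochondrial share of the summed FPKM was 30.6 to 34.7% in positive thalamus and 23.1 to 28.9% in positive spinal cord libraries without overlap, and 32.6 to 49.3% and 22.6 to 43.8% in the negative ones. The part of these measures in the results was not tested.

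The comparison of the gates asks whether the levels of these genes differ with the Il33 reporter within a region. In the thalamus 0 of the 6 tested genes were called, against 25.2% of all features (11.6% higher and 13.6% lower in positive libraries), and 1 had an unadjusted limma p under 0.05. This was Nr2e1, whose positive libraries (16.6 ± 1.07 FPKM) all lay below the negative ones (32.04 ± 19.8 FPKM, SD, n = 4), also within each of the 4 mice. Its log2 fold change was -0.75 ± 0.27 (SE, limma adjusted p = 0.0508, from 0.0230 to 0.154 over 29 alternatives and under 0.05 in 6). Without the negative library of mouse 2 it was -0.39 (limma adjusted p = 0.0538), and without those of mice 1 and 2 it was -0.44 (limma adjusted p = 0.0335). The sums of ependymal, oligodendrocyte, neuronal, tanycyte and endothelial markers were higher in negative than in positive thalamus libraries without overlap. The neuronal sums were 66.1 to 106 FPKM against 16.9 to 22.7 FPKM, and the tanycyte sums 47.6 to 209 FPKM against 11.7 to 18.6 FPKM. The endothelial sums were 71.4 to 111 FPKM against 10.7 to 15.3 FPKM. Their part in the Nr2e1 values was not tested.

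The other tested genes gave smaller estimates in the thalamus. Otx2 was 0.29 ± 0.15 lower in positive libraries on the log2 scale (limma adjusted p = 0.191), in 3 of 4 mice. Nr2f1 gave 0.35 ± 0.25 (SE, limma adjusted p = 0.327), with the positive library higher in 4 of 4 mice. Six3 gave -0.43 ± 0.49 (SE, limma adjusted p = 0.554), but 0.18 without the negative library of mouse 2, and Otx1 and Gbx2 gave -0.07 ± 0.28 and -0.18 ± 0.39 (SE, limma adjusted p = 0.871 and 0.769).

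In the spinal cord 0 of the 6 tested genes were called between the gates, against 19.6% of all features (9.04% higher and 10.5% lower in positive libraries), and none had an unadjusted limma p under 0.05. Gbx2 was lower in the positive library of 4 of 4 mice (1.48 ± 0.666 FPKM against 3.11 ± 1.77 FPKM, SD, n = 4), although the ranges overlapped and the log2 fold change was -0.66 ± 0.39 (SE, limma adjusted p = 0.254). Six3 ran the other way at very low levels: its 4 positive libraries all lay above the negative ones, at a log2 fold change of 0.27 ± 0.49 (limma adjusted p = 0.751). The values of Six3os1, its antisense neighbour, were also higher in the positive spinal cord library of 4 of 4 mice, with overlapping ranges.

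The genes also differed in how much they varied among mice of a group. In negative thalamus the library of mouse 2 stood apart for Six3 (61.8 FPKM, next 16.7), Nr2e1 (61.7 FPKM, next 23.1) and Emx2 (6.29 FPKM, next 1.28). For Otx2 (43.9 FPKM) it lay among the other mice, for Otx1 (11.7 FPKM) it was the lowest, and for Nr2f1 (19.5 FPKM, next 13.3) it was the highest by a smaller margin. The same library was highest of all 16 for other forebrain genes: Lhx2, a factor of cortex, eye and hypothalamus, at 23.2 FPKM (next 3.16), and Fezf2, of forebrain projection neurons and named after its values were seen, at 11.5 FPKM (next 4.05). Its sum over 9 tanycyte genes, which include Lhx2, was 209 FPKM against 47.6 to 60.2 FPKM in the other 3. Of this sum 74.6 FPKM was Crym, which was at most 0.845 FPKM in any other library. Rax, another of the 9, was listed at 0 in this library and at 2.19 FPKM in the negative thalamus library of mouse 3. Crym and Rax were also named after their values were seen.

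In negative thalamus the choroid plexus gene Ttr was 469 FPKM in mouse 1, 599 FPKM in mouse 2, 0.397 FPKM in mouse 3 and 11.4 FPKM in mouse 4. Mouse 1 had the lowest Six3 and Nr2e1 of the group. In positive thalamus the library of mouse 2 was again highest for Six3 (21.7 FPKM) but not for Nr2e1 (16.4 FPKM), Emx2 (0.461 FPKM) or Fezf2 (0.0746 FPKM). All 4 regional calls held without the negative thalamus library of mouse 2, and without those of mice 1 and 2. Whether other cells took part in the levels of this library was not tested.

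**Figure D3:**
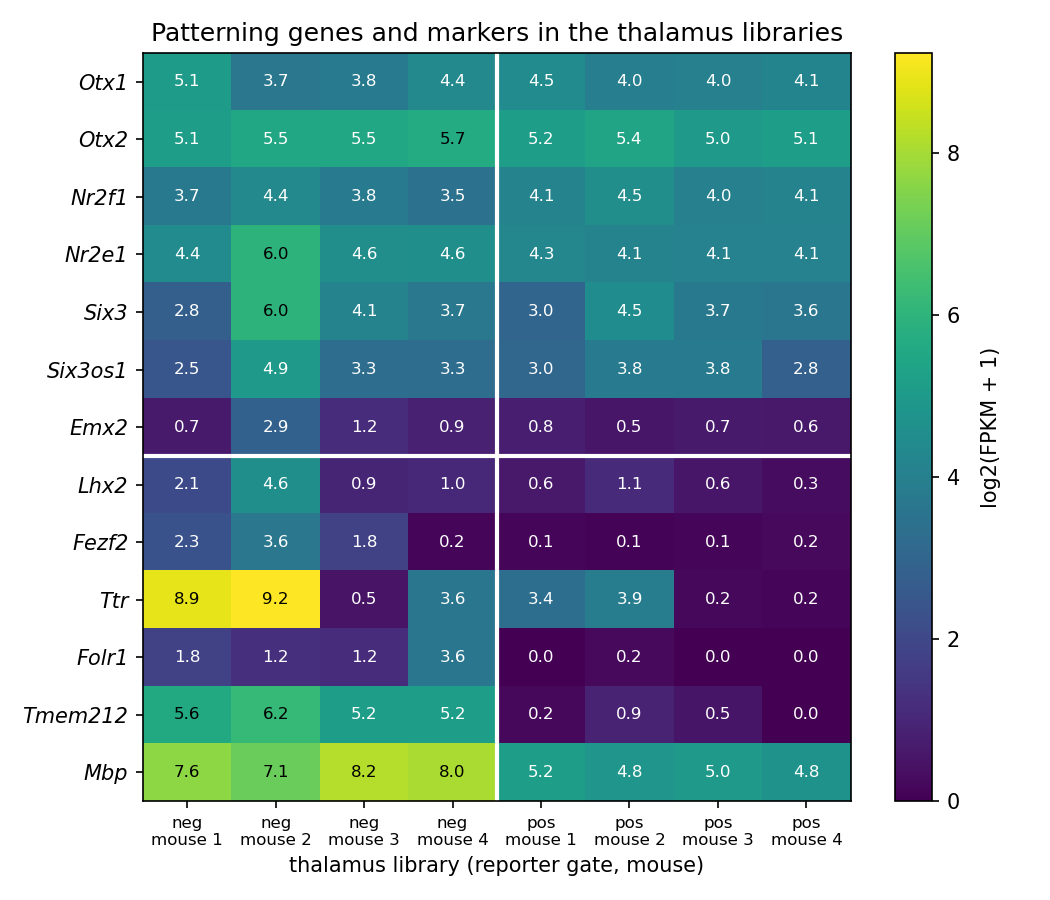
Levels (log2(FPKM + 1), number and colour of each cell) of 6 of the patterning genes and Six3os1 (above the white line) and of forebrain and cell type marker genes (below it) in the 8 thalamus libraries, by reporter gate and mouse. In the negative library of mouse 2, Nr2e1, Six3, Emx2, Lhx2 and Fezf2 are high together, while Otx1 and Otx2 are not, and Ttr is high in the negative libraries of mice 1 and 2.

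Noncoding genes lie across from 4 of the 8 genes on the opposite strand. Otx2os1 overlaps Otx2 by 5112 bases, Six3os1 overlaps Six3 by 4791, A830082K12Rik overlaps Nr2f1 by 1741 and Emx2os overlaps Emx2 by 264. No source used here says whether strand was used in counting, so reads from the shared bases cannot be told apart between the partners. Six3os1 was 6.198 to 13.0 FPKM in positive and 4.59 to 29.8 FPKM in negative thalamus and at most 0.461 FPKM in the spinal cord. Six3os1 thus reached 1 FPKM only in thalamus libraries, so it had to differ, and its calls support nothing further. The spinal cord was lower by log2 fold changes of -2.95 ± 0.40 (SE, limma adjusted p = 2.99e-04) in the positive and -3.24 ± 0.40 (limma adjusted p = 8.37e-05) in the negative gate. Mouse 2 was highest in negative thalamus, as for Six3. Otx2os1 was listed at 0 in all 8 spinal cord libraries. Unlike Otx2, it was higher in positive (0.681 to 1.72 FPKM) than in negative thalamus (0.151 to 0.436 FPKM) without overlap, at levels too low for the test. A830082K12Rik exceeded its coding partner, at 49.4 to 83.6 FPKM over the 16 libraries, with no call between regions (limma adjusted p = 0.956 and 0.214). Emx2os was 0.188 to 2.67 FPKM in negative thalamus and at most 0.168 FPKM in the spinal cord.

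Among 10 close paralogues, 5 were tested and 1 was called, lower in the spinal cord in each gate: Nr2f2 (COUP-TFII), at 12.8 ± 1.77 FPKM against 2.04 ± 0.253 FPKM (SD, n = 4) in positive libraries (log2 fold change -2.18 ± 0.24, SE, limma adjusted p = 4.92e-05). In negative libraries it was 9.76 ± 0.821 FPKM against 4.41 ± 2.42 FPKM (SD, n = 4), a log2 fold change of -1.09 ± 0.24 (limma adjusted p = 0.00929) that did not pass without mouse 1, without mouse 4 or with only the groups compared (limma adjusted p = 0.0886, 0.0999 and 0.175). Nr2f2 thus fell in the spinal cord where the estimates of Nr2f1 were above 0. Six2, the most abundant of these paralogues, was 4.42 to 16.6 FPKM over the 16 libraries and was not called in the regional comparison of either gate (limma adjusted p = 0.355 and 0.807). Over all features 1.88% were called lower in the positive and 4.54% in the negative gate, and 1 call among 5 genes describes that gene only.

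Another list held 37 forebrain and diencephalic patterning genes, of which 20 were tested, and it shares Nr2f2 and Emx1 with the paralogues, so the call of Nr2f2 is counted again here. In the positive gate 2 were higher and 6 lower in the spinal cord, against 4.22% and 1.88% of all features. The median log2 fold change was -0.60 against -0.00 over all features. In the negative gate 2 were higher and 6 lower, against 5.27% and 4.54% of all features, with a median of -0.35 against -0.00. Of the 20, Barhl2 and Lhx2 reached 1 FPKM only in thalamus libraries and Wnt8b only in those of the spinal cord, so these 3 had to differ, and the counts and medians that include them support nothing further. Prox1, a homeobox factor of thalamic and other lineages, fell by 1.93 ± 0.25 on the log2 scale in positive libraries (5.18 ± 0.895 FPKM to 0.620 ± 0.231 FPKM, SD, n = 4, limma adjusted p = 1.88e-04). In negative libraries it gave 0.06 ± 0.25 (limma adjusted p = 0.936), and the difference between the gates was itself called (-1.99 ± 0.35, limma adjusted p = 0.00657). Barhl2, a diencephalic homeobox gene, was lower in both gates (-1.58 ± 0.25, limma adjusted p = 0.00107, and -2.88 ± 0.25, limma adjusted p = 3.13e-06). Nkx2-1, a ventral forebrain gene, was lower in both (-1.55 ± 0.33, limma adjusted p = 0.00953, lost without mouse 2 or 3, and -2.21 ± 0.33, limma adjusted p = 4.44e-04).

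Lhx2 was lower in negative libraries (-2.06 ± 0.57, limma adjusted p = 0.0336), a call lost in 10 of 28 alternatives. It held without the negative thalamus library of mouse 2, at -1.25 (limma adjusted p = 0.00653). Higher in the spinal cord were Meis2, a TALE homeobox gene (2.08 ± 0.46, limma adjusted p = 0.0124, in positive libraries, lost without mouse 1, 3 or 4, and 1.55 ± 0.46, limma adjusted p = 0.0450, in negative ones, lost in 20 of 29 alternatives, with the block by mouse at limma adjusted p = 0.0679) and the Wnt ligand gene Wnt8b (1.46 ± 0.24, limma adjusted p = 0.00147, in positive libraries, lost without mouse 4, and, named in this gate after its values were seen, 0.89 ± 0.24, limma adjusted p = 0.0259, in negative ones, lost in 10 of 28 alternatives, among them the block by mouse at 0.0578).

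**Figure D4:**
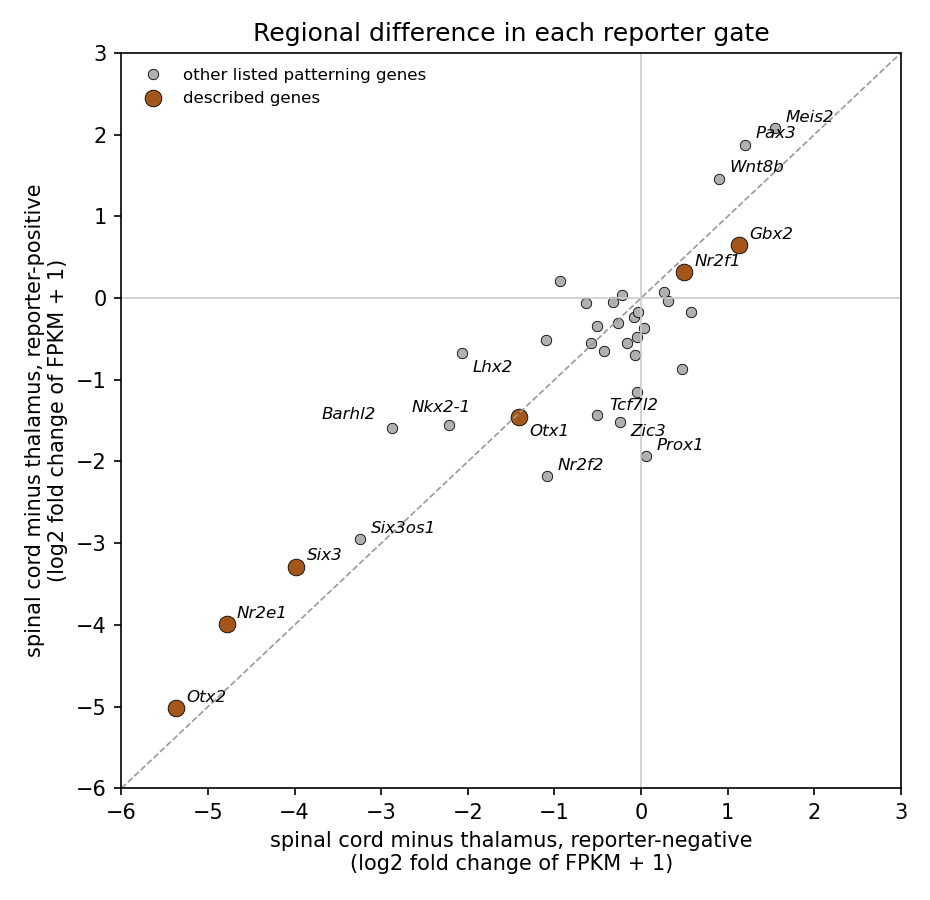
Spinal cord minus thalamus log2 fold change of FPKM + 1 in reporter-negative (horizontal axis) and reporter-positive libraries (vertical axis) for the 6 tested genes (large orange points) and other listed patterning genes, paralogues and antisense genes (small grey points). The dashed line marks equal change: Otx2, Nr2e1 and Six3 lie at the lower left, Nr2f1 and Gbx2 above 0 on both axes, and Prox1 near 0 on the horizontal axis and at -1.93 on the vertical one.

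Of 14 isthmus, midbrain and hindbrain genes, 5 were tested. Over all features 4.22% were called higher in the spinal cord in the positive and 5.27% in the negative gate. Pax3, a dorsal neural tube factor, was called higher in the spinal cord in both gates (1.88 ± 0.28, SE, limma adjusted p = 8.73e-04, and 1.197 ± 0.28, limma adjusted p = 0.0144), and the other 4 were called in neither. The negative gate lost this call without mouse 2, 3 or 4 and with only the groups compared. Of 18 genes for partners and corepressors of SIX3, its relatives and nuclear receptors, 14 were tested, and 1 was higher and 1 lower in the positive gate and 2 lower in the negative one. The shares over all features were 4.22% higher and 1.88% lower in the positive and 4.54% lower in the negative gate. So few calls describe single genes and not the list. Eya1, which encodes a coactivator and phosphatase that binds SIX3 relatives, was lower in the spinal cord in both (-1.01 ± 0.16, SE, limma adjusted p = 0.00157, and -1.36 ± 0.16, limma adjusted p = 8.19e-05), from 4.28 ± 0.432 FPKM to 1.62 ± 0.199 FPKM in positive libraries (SD, n = 4). Eya4, which reached 1 FPKM only in thalamus libraries, was lower in negative ones (-1.10 ± 0.26, limma adjusted p = 0.0140, lost in 3 of 28 alternatives), and Atn1, a corepressor that works with NR2E1, was higher in positive ones (0.47 ± 0.13, limma adjusted p = 0.0431, lost in 13 of 29 alternatives, with the block by mouse at limma adjusted p = 0.0715).

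The genes whose profile over the 16 libraries was most like that of each tested gene were taken from 12532 named features, by Pearson's r of log2(FPKM + 1). These r values mostly reflect the separation of the regions, which all 16 points share, and are a description. For Otx2 they were Adcy2, an adenylyl cyclase gene (r = 0.987, with means of 14.2 FPKM in positive thalamus and 3.26 FPKM in positive spinal cord), Scel (0.981) and the monooxygenase gene Fmo1 (0.979, 195 FPKM and 20.1 FPKM). Nr2e1 shared Fmo1 (0.970) and Adcy2 (0.970) and added Cacng5 (0.965). Six3 was closest to Igdcc3 (0.942), Epb4.1l5 (0.940) and the glutamate transporter gene Slc1a3 (0.937), itself lower in the spinal cord in both gates (-1.56 ± 0.18, limma adjusted p = 6.37e-05, and -1.45 ± 0.18, limma adjusted p = 8.36e-05). Otx1 was closest to Sox1ot (0.928), Best3 (0.927) and the Notch ligand gene Dner (0.917). The nearest to Gbx2 were Cdk2ap1 (0.927), Mob1a (0.897) and the thyroid hormone receptor gene Thra (0.889). Nr2f1 had the least alike neighbours of the 6, Kctd18 (0.873), Lgmn (0.872) and Ssfa2 (0.867).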

How the data were processed

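FPKM values of 39171 features in 16 libraries were used as the authors deposited them. Per the labels' protocols, total RNA came from a Qiagen micro kit and libraries from a NuGEN kit. Per the submitters' processing notes, the build was GRCm38 and the tools included HTSeq 0.6.1p1, DESeq2, Cufflinks, Cuffnorm, Bowtie2 2.2.3, TopHat2 2.0.11 and FastQC. No source used here says which of these scaled the values between libraries. The deposited comparison table was not used. Summed FPKM was 984986 to 2344483 per library.

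A single limma 3.58.1 model (R 4.3.3, trended prior, 1 coefficient per group, 16 libraries) was fitted to log2(FPKM + 1). It covered the 16340 features that reached 1 FPKM in 4 or more libraries, with Benjamini-Hochberg adjustment over all of them and calls at an adjusted p under 0.05. On simulated data for spinal cord against thalamus in positive libraries (16340 features), 28% of changes of 1 and 84% of changes of 2 (log2) were recovered. The changed features were drawn from those with a mean log2(FPKM + 1) above 2, and each feature had the same spread in every group. The rates therefore do not apply to low genes such as Gbx2 or to groups of unequal spread. Libraries of a mouse number share an animal per the labels, and their deviations from group means correlated at a mean of 0.036 in 24 same-mouse and -0.012 in 72 other pairs. Other settings numbered 29, of which the one without 2 thalamus libraries was chosen after seeing the data, as were the settings for Emx2 and for listed genes. The genes and lists were chosen with earlier results of these data known. From each list, up to 3 called genes per direction and regional comparison were named, those of largest change whose higher group averaged 2 FPKM or more, with the 2 most abundant of cell type lists. One listed gene is not reported here and was left out of its list.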

Additional observations from a re-analysis of the deposited data

Results flagged for a closer look

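Of 32 groups of 4 libraries (8 genes in 4 groups), 4 held a library far from the other 3 by Dixon's test on FPKM values. Chance gives this in about 1 in 20 groups of normally spread values without ties, so the rate is only a rough guide here. In negative thalamus mouse 2 was far above the rest for Nr2e1, at 61.7 FPKM with the next library at 23.1 FPKM, and for Emx2, at 6.29 FPKM with the next at 1.28 FPKM. Six3 in the same library, at 61.8 FPKM, fell short of the test. The other 2 concern Emx2 in the spinal cord, where a single library was above 0, at 0.0186 FPKM in the negative library of mouse 2 and at 0.0285 FPKM in the positive library of mouse 1. With the other 3 libraries at 0, any value above 0 would be flagged, so these 2 flags carry no information.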

How the results depend on the processing

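Otx2, Six3 and Nr2e1 stayed lower in the spinal cord and past the threshold in both gates under all 29 alternatives, and Otx1 under 28 in the positive and 27 in the negative gate. Otx2, Six3 and Nr2e1 passed the filter only through the thalamus, so they had to differ, and their passing supports nothing further. The number of the 8 genes called ran from 3 to 5 in each regional comparison. Between the gates in the thalamus it was 1 (Nr2e1) in place of 0 with median-of-ratios rescaling, with a prior without a trend, without the negative library of mouse 1, 3 or 4, and without those of mice 1 and 2. The replicate block by mouse changed the call of Gbx2 in negative libraries (1.13, limma adjusted p = 0.0478) and no other call of the 6 genes.

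No called value of the 6 genes changed sign, while uncalled ones near 0 did. With libraries or mice left out, the difference between gates in the thalamus ranged from -0.45 to 0.20 for Gbx2, from -0.26 to 0.21 for Otx1 and from -0.88 to 0.18 for Six3. In the spinal cord it ranged from -0.0051 to 0.075 for Nr2e1, from -0.060 to 0.35 for Nr2f1, from -0.25 to 0.059 for Otx1 and from -0.011 to 0.12 for Otx2, and the difference of these between regions from -0.33 to 0.26 for Otx1. In the thalamus Gbx2 gave 0.16 with 0.1 added to each value. Without the negative thalamus libraries of mice 1 and 2, Otx1 gave 0.075 there and Gbx2 gave 0.17 for the difference between regions.

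Counts over all features moved more. With libraries or mice left out they ran from 368 to 1402 (996 with all) and from 976 to 1808 (1603) for the positive and negative regional comparisons, from 2249 to 4855 (4119) and from 1861 to 3906 (3196) for the gates in thalamus and spinal cord, and from 129 to 659 (418) for their difference. With only the groups compared, the regional counts were 4227 and 353. With a filter of 5 FPKM the difference gave 271, and without the negative thalamus libraries of mice 1 and 2 it gave 1031 and the positive regional comparison 1725. The cause was not tested. Levels under 1 FPKM (Emx2, Six6, the spinal cord values of Otx2, Six3 and Nr2e1) have unknown counting error.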
